A study of Homo sapiens with 2 samples.

Results

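The CpG methylation of 10 human genes that mark monocytes and granulocytes was compared between 2 acute myeloid leukemia (AML) cell lines. The genes were CD14, CSF1R, CSF3R, ITGAM, ITGAX, ANPEP, LYZ, FCGR1A, FUT4 and CLEC12A, 10 of the 20163 protein-coding genes of the annotation. They were chosen by name as common markers of these cells, with earlier results of these data known. Every CpG dinucleotide within 2 kb of an annotated transcription start site (TSS) of these genes, or inside the gene, was taken, which gave 4194 of the 28217009 CpG dinucleotides listed on the nuclear chromosomes. All coordinates are those of GRCh37 (hg19).

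OCI-AML3 carries a heterozygous missense mutation of DNMT3A, a de novo DNA methyltransferase, and OCI-AML5 is DNMT3A wild type. Both are established lines grown in DMEM with fetal bovine serum according to the sample labels, neither was treated, and each gave 1 library for whole-genome bisulfite sequencing, so there are no replicates and the mutation cannot be told apart from any other difference between the lines. The tables hold the number of reads that called each CpG methylated and unmethylated, with 902802339 calls in OCI-AML3 and 894828667 in OCI-AML5 and medians of 27 and 30 calls per nuclear CpG. The deposited tables hold no expression values, so the marker genes could not be used to check the labelled cell type, and the tables hold no base that would check the mutation. In a bulk library, a level between 0% and 100% cannot tell a share of the cells from a share of the alleles.

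Monocytes and granulocytes arise from common myeloid progenitors, and the receptors for their growth factors are switched on along the way. CSF1R is the receptor for macrophage colony-stimulating factor and CSF3R the receptor for granulocyte colony-stimulating factor. ITGAM (CD11b) and ITGAX (CD11c) are integrin alpha chains that pair with the common beta chain ITGB2, CD14 is the co-receptor that presents bacterial lipopolysaccharide to TLR4, FCGR1A (CD64) is the high-affinity receptor for IgG, and CLEC12A is an inhibitory C-type lectin receptor found on many AML blasts. ANPEP (CD13) is a membrane aminopeptidase, FUT4 is the fucosyltransferase that builds the CD15 carbohydrate, and LYZ is the secreted enzyme lysozyme rather than a surface protein. CpG methylation at a promoter or an intronic enhancer often goes with a silent gene, whereas methylation along the body of a transcribed gene is common.

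A selection of stretches near the 5′ end of these genes, free of untranslated regions and on which the results turn, is given on the strand of each gene, 5′ to 3′, read from GRCh37 and with every CpG in capitals. All but those of LYZ and CSF3R were cut from consecutive CpGs that differed in one direction by the test described below. In the ANPEP stretch (chr15:90358267-90358354, minus strand, 183 to 270 bp upstream of the canonical TSS) and the FUT4 stretch (chr11:94276138-94276388, plus strand, 699 to 949 bp upstream) the level was lower in OCI-AML3.
ANPEP: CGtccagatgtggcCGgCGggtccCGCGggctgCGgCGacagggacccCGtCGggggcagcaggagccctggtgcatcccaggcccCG
FUT4: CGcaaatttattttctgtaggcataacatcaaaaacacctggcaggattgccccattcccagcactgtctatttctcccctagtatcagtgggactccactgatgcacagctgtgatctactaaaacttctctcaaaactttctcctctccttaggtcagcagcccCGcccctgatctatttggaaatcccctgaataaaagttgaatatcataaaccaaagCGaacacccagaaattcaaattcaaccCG
All 10 CpGs of the ANPEP stretch were at 0% in OCI-AML3, with 58 to 81 calls each, and at 17.6% to 76.3% in OCI-AML5, with 34 to 40 calls each. The FUT4 stretch holds 4 CpGs in 251 bases, which together averaged 19.6% in OCI-AML3 against 76.5% in OCI-AML5.

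The level was higher in OCI-AML3 in stretches of the first intron of 5 genes and in the coding part of the second exon of CD14. These are CSF1R (chr5:149462441-149462740, minus strand), CLEC12A (chr12:10126101-10126400, plus strand), ITGAM (chr16:31271670-31271780 and chr16:31272059-31272174, plus strand), ITGAX (chr16:31366880-31366950, plus strand), LYZ (chr12:69742478-69742539, plus strand) and CD14 (chr5:140011845-140011904, minus strand).
CSF1R: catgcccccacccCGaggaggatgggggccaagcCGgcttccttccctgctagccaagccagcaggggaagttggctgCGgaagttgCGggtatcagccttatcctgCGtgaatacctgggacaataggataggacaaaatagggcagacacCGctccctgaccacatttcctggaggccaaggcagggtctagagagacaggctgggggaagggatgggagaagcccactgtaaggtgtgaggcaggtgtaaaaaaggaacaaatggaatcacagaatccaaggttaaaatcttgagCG
CLEC12A: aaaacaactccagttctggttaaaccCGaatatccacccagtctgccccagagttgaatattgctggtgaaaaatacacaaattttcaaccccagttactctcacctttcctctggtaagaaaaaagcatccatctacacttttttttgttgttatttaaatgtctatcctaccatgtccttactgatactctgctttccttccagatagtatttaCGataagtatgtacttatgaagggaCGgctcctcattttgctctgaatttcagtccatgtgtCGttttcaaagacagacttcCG
ITGAM, upstream: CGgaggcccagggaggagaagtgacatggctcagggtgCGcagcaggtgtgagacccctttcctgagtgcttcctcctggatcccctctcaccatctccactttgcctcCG
ITGAM, downstream: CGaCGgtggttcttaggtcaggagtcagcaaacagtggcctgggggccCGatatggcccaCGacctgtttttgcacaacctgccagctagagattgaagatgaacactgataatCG
ITGAX: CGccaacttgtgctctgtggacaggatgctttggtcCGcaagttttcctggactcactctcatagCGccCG
LYZ: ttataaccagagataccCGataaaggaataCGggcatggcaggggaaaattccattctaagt
CD14: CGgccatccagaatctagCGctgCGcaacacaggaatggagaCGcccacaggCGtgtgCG
For contrast, the CpG-densest 200 bases of the first intron of CSF3R (chr1:36947755-36947954, minus strand) were nearly unmethylated in both lines, with means of 0.81% in OCI-AML3 and 0.29% in OCI-AML5 over 12 CpGs.
CSF3R: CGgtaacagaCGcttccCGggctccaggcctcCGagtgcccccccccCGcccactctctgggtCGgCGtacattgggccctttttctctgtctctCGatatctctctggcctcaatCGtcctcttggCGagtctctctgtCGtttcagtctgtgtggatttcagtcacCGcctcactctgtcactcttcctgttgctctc

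**Figure D1:**
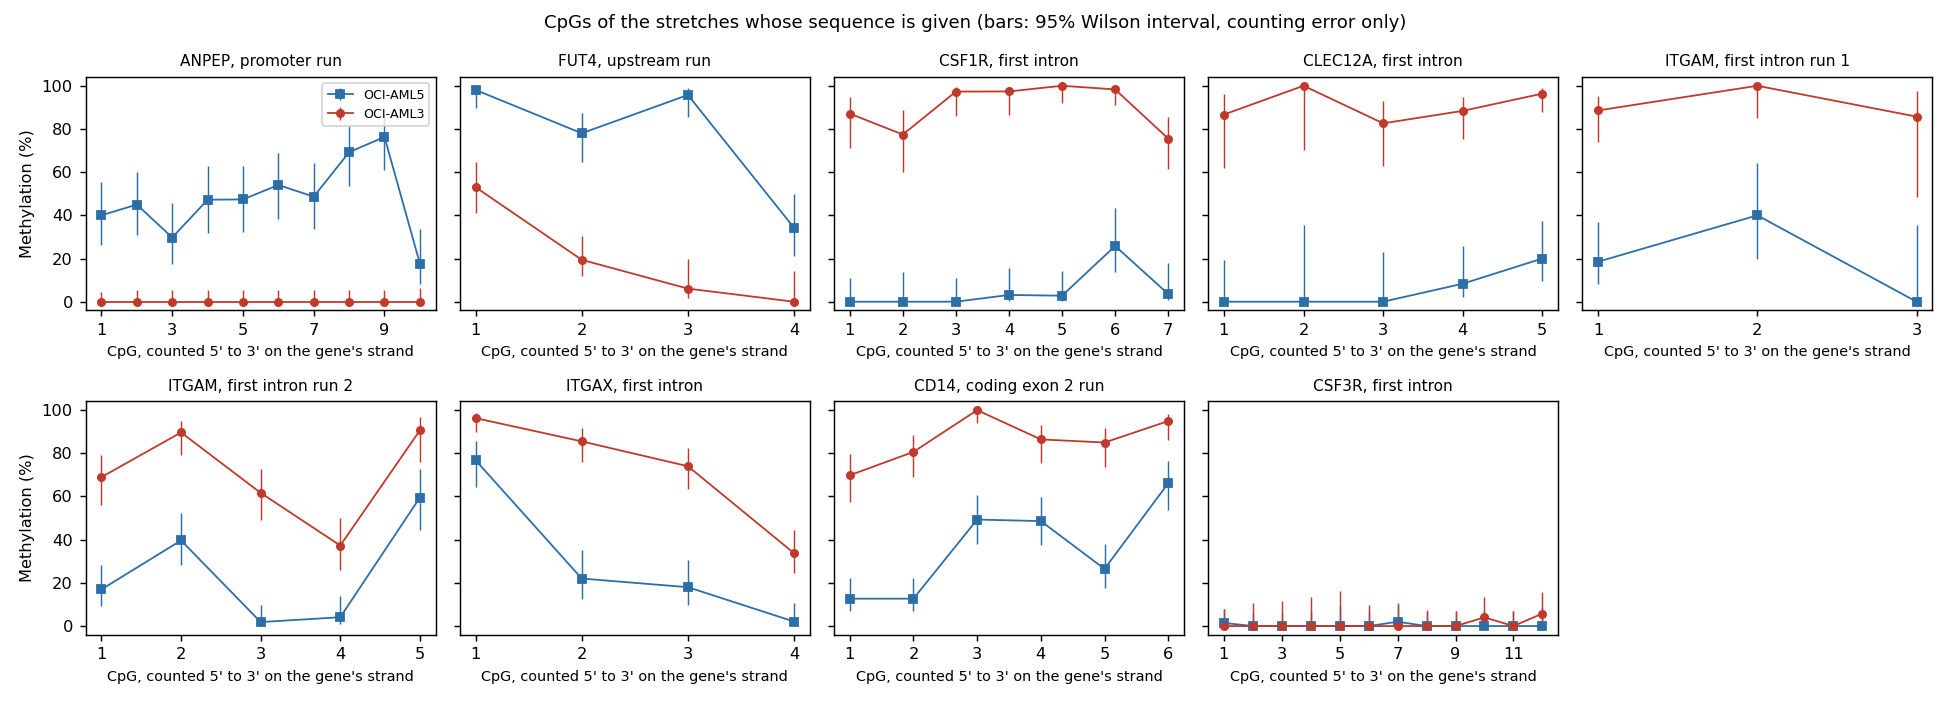
Methylation (%) of each CpG in the stretches given as sequence, apart from that of LYZ, numbered 5′ to 3′ on the strand of the gene, for OCI-AML3 (red circles) and OCI-AML5 (blue squares), with 95% Wilson intervals for counting error. OCI-AML3 is the lower line in the ANPEP and FUT4 stretches and the higher line in the CSF1R, CLEC12A, ITGAM, ITGAX and CD14 stretches. These stretches were cut from consecutive CpGs all called in one direction, so the shared direction at every CpG follows from their choice. Both lines lie below 6% throughout CSF3R, whose stretch was chosen by CpG density.

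Each CpG with more than 5 reads in both libraries was compared by a two-sided Fisher's exact test on its methylated and unmethylated calls, with Benjamini-Hochberg adjustment over all 24454751 such nuclear CpGs, and a CpG was called at an adjusted p under 0.05. With 1 library a line the test compares these libraries through the sampling of reads and not the conditions. Of all nuclear CpGs tested, 14.7% were called lower and 3.86% higher in OCI-AML3. Within 2 kb of any TSS of the 10 genes, 207 of 2171 CpGs (9.53%) were called lower, beside 12.5% around all TSSs of protein-coding genes, and 102 (4.7%) were called higher, beside 4.12%. In the gene bodies, 354 of 3643 CpGs (9.72%) were called lower, beside 13.1% over all bodies, and 133 (3.65%) were called higher, beside 3.25%. The marker genes thus held a smaller share of lower calls than the background and a share of higher calls close to it.

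Promoter levels, taken as the mean over CpGs within 2 kb of the most upstream TSS, differed little between the lines for most of the genes. The median difference of the 10 promoters (OCI-AML3 minus OCI-AML5) was 1.70 percentage points, with 4 lower and 6 higher in OCI-AML3 beside 84.7% lower over all promoters, whereas the median of all 19667 promoters with at least 10 CpGs was -4.68. ANPEP alone was lower by over 20 points, beside 8.61% of all promoters, and none of the 10 was higher by over 20 points, beside 1.79%. The sign of the members' median depended on the window, and it was -1.26 with 1 kb on either side of the TSS over the 9 promoters that kept 10 CpGs. Gene bodies were lower in OCI-AML3 for 8 genes and higher for CD14 and FCGR1A, with a median of -1.17 points beside -4.97 over all bodies, of which 92.3% were lower. As shares of calls the body of CSF3R was instead higher, by 2.66 points (95% interval 1.44 to 3.88). None of the 10 bodies differed by over 20 points, beside 6.56% of all bodies that were lower and 0.613% that were higher by that much.

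**Figure D2:**
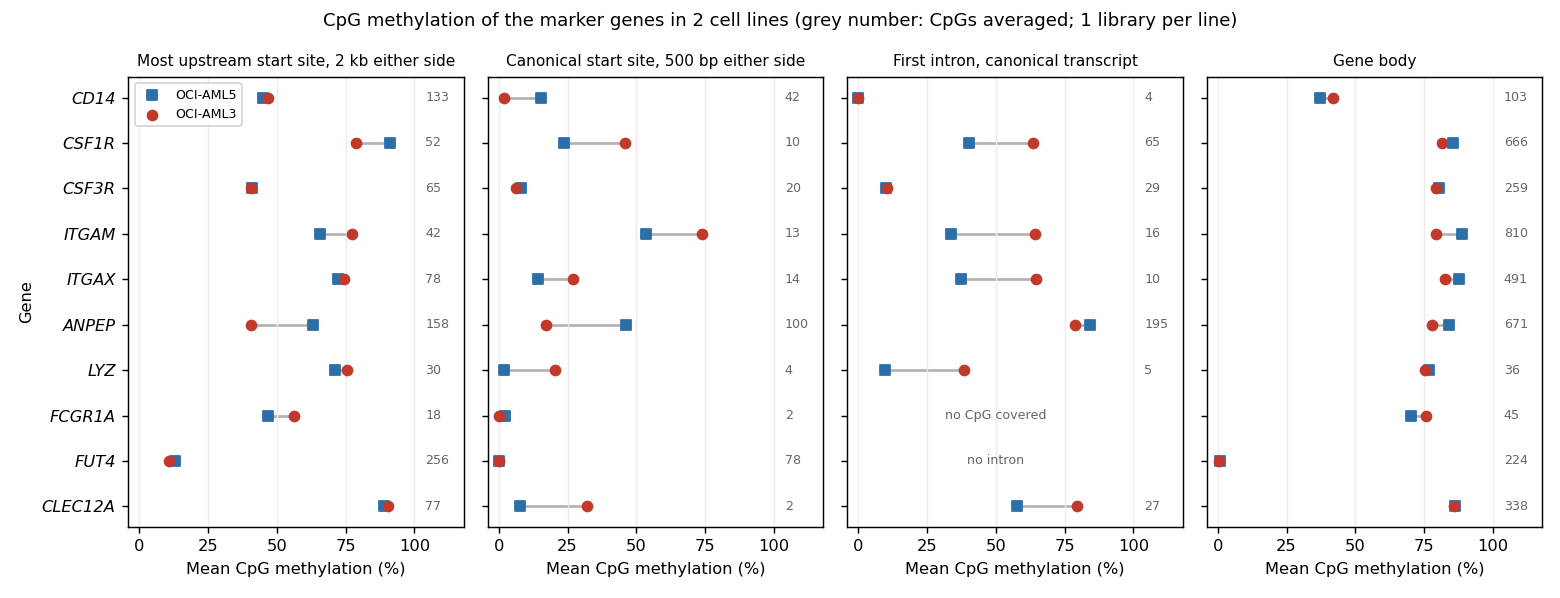
Mean CpG methylation (%) of the 10 genes in OCI-AML3 (red circles) and OCI-AML5 (blue squares), in 4 windows, with the number of CpGs averaged in grey (1 library per line, no error bar). ANPEP shows the widest promoter gap, 40.6% against 63.2%, and CSF1R, ITGAM, ITGAX, LYZ and CLEC12A have the red circle to the right in the first intron, while the gene bodies of most genes lie above 70% in both lines.

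Among the growth factor receptors, CSF1R was read in opposite directions at its different start sites. Its most upstream annotated TSS lies 26818 bp before the canonical one, in a window that also holds the end of PDGFRB. The level there was 78.9% in OCI-AML3 and 91.0% in OCI-AML5 over 52 CpGs, and 9 of them were called lower in OCI-AML3. Within 2 kb of the canonical TSS the level was instead 77.0% in OCI-AML3 and 60.1% in OCI-AML5 over 40 CpGs, with 9 called higher and 1 lower. Within 500 bp of that TSS the levels were 45.9% and 23.9% over 10 CpGs. As shares of all calls there, 36.2% and 15.2% were methylated, a difference of 21.1 points (95% Newcombe interval 14.2 to 27.6, counting error only).

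The first intron of CSF1R, 5354 bp in the canonical transcript, had a mean of 63.5% in OCI-AML3 and 40.2% in OCI-AML5 over 65 CpGs, of which 21 were called higher and 2 lower. The first coding intron of this gene is known to carry an enhancer used in macrophages, and no overlap with it was examined here. Of the higher calls, 14 fell into 3 runs, each a series of at least 3 consecutive tested CpGs called in one direction with gaps of at most 300 bp. In the longest, from 3105 to 3676 bp downstream of the TSS, 8 CpGs had a mean of 91.3% in OCI-AML3 and 5.15% in OCI-AML5, and the printed CSF1R stretch holds 7 of them. Single CpGs in that stretch were at 75.6% to 100% in OCI-AML3 and 0% to 25.8% in OCI-AML5. The stretch was cut from a run of CpGs called higher, so this separation follows in part from its choice. Nearer the TSS, at 648 to 869 bp, 3 CpGs were at means of 90.9% and 14.3%, and at 2546 to 2717 bp another 3 were at 73.3% and 33.5%. Over most of the rest of the gene the lines were closer, with 85.7% and 91.4% over 277 CpGs of the other introns and 93.1% and 95.4% over 87 CpGs of coding exons. The 3′ untranslated region, however, was at 71.6% and 53.7% over 10 CpGs, of which 4 were called higher and none lower. The called CpG with the largest gap lay 13529 bp upstream of the canonical TSS, inside the longer transcripts, with 31 of 31 calls methylated in OCI-AML3 and 1 of 38 in OCI-AML5 (Fisher's exact test, adjusted p = 1.37e-16).

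CSF3R, in contrast, showed nearly the same mean levels in both lines over most windows. Within 2 kb of its most upstream TSS the level was 40.6% in OCI-AML3 and 41.1% in OCI-AML5 over 65 CpGs, and 2 CpGs were called lower and 1 higher. The window within 500 bp of the canonical TSS was at 6.12% and 7.92% over 20 CpGs, and the first intron at 10.3% and 10.0% over 29 CpGs. The difference in the share of calls in that intron was -0.088 points (95% interval -2.35 to 2.22). The gene body was at 79.5% and 80.6% over 259 CpGs, and no run of called CpGs was found at the gene. A single CpG 4460 bp downstream of the TSS stood apart, with 31 of 32 calls methylated in OCI-AML3 and 0 of 28 in OCI-AML5 (Fisher's exact test, adjusted p = 3.05e-14). A count of 0 in 28 calls allows a level of up to 10.7% there.

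Both integrin genes were more methylated in OCI-AML3 just downstream of the TSS and less methylated over the gene body as a whole. The ITGAM promoter was at 77.3% in OCI-AML3 and 65.8% in OCI-AML5 over 42 CpGs, with 9 called higher and 1 lower, while the 21 CpGs upstream of the TSS alone were at 82.6% and 83.4%. The first intron was at 64.3% and 33.7% over 16 CpGs, with 8 called higher and none lower. The upstream ITGAM stretch had means of 91.4% and 19.5% over 3 CpGs, at 374 to 484 bp from the TSS, and the downstream stretch 69.6% and 24.4% over 5 CpGs at 763 to 878 bp. As shares of calls, the first intron of ITGAM was at 58.0% and 28.7%, a difference of 29.3 points (95% interval 23.6 to 34.7).

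Most other calls in ITGAM went the other way. Its body was at 79.3% in OCI-AML3 and 88.8% in OCI-AML5 over 810 CpGs, with 112 called lower and 14 higher, and it held 8 runs of lower calls. Of these, 3 lay near the 3′ end of the gene, between 71157 and 71844 bp from the TSS, and had means of 13.0%, 2.94% and 21.3% in OCI-AML3 and of 79.6%, 74.9% and 89.7% in OCI-AML5, over 12, 6 and 10 CpGs. A further pair in an intron, at 42645 to 42852 bp, had means of 13.9% and 7.55% in OCI-AML3 and of 73.7% and 93.9% in OCI-AML5. At 71744 bp a CpG had 0 of 30 calls methylated in OCI-AML3 and 30 of 32 in OCI-AML5 (Fisher's exact test, adjusted p = 1.08e-13), the largest gap among the called CpGs of the gene. The flanks, from 2 kb to 50 kb beyond either end of the gene, were at 76.9% and 85.0% over 1733 CpGs. They leave out ITGAM itself and reach over most of ITGAX.

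At ITGAX the promoter was at 74.3% in OCI-AML3 and 72.1% in OCI-AML5 over 78 CpGs, with 6 called in each direction. Within 500 bp of the canonical TSS, however, the level was 27.1% and 14.4% over 14 CpGs, and 4 of these were called higher and none lower. They form the printed ITGAX stretch, 383 to 453 bp from the TSS, where the level fell along the stretch in both lines, OCI-AML3 going from 96.3% to 33.7% and OCI-AML5 from 76.8% to 2.08%. The first intron was at 64.6% and 37.3% over 10 CpGs, with 6 called higher. It was read at 58.5 calls per CpG in OCI-AML3 and 37.2 in OCI-AML5, and the part of this depth gap in the result was not tested. The body was at 82.7% and 87.5% over 491 CpGs, with 46 called lower and 16 higher. It held 2 runs of lower calls and, besides the printed stretch, 2 of higher calls. Its largest gap at a called CpG was 23867 bp from the TSS, with 2 of 19 calls methylated in OCI-AML3 and 22 of 22 in OCI-AML5 (Fisher's exact test, adjusted p = 3.53e-08).

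CD14 was divided along its length. Around the canonical TSS (500 bp on either side, 42 CpGs) the level was 2.06% in OCI-AML3 and 15.5% in OCI-AML5, and 16 CpGs were called lower and none higher. Of these 42 CpGs, 40 lay downstream of the TSS and 2 upstream, so the upstream side was hardly read. The share of calls over the 42 CpGs was 2.05% and 16.1%, a difference of -14.1 points (95% interval -15.7 to -12.4). The first exon was at 2.08% and 27.4% over 6 CpGs, and the 4 CpGs of the short intron were at 0% in both lines, with 222 and 161 calls in all. Further into the second exon, which codes for nearly the whole protein, the order turned. There 7 runs of higher calls lay between 752 and 1383 bp from the TSS, with means of 74.8% to 98.6% in OCI-AML3 and 36.0% to 74.3% in OCI-AML5. In the printed CD14 stretch the 6 CpGs were at 69.8% to 100% in OCI-AML3 and 12.7% to 66.1% in OCI-AML5. The promoter as a whole, which covers both sides, was at 46.9% and 44.8% over 133 CpGs, with 27 called lower and 30 higher, so that its mean hid differences in both directions. Within 1 kb of the most upstream TSS the difference was -10.9 points. The window was read at 57.2 calls per CpG in OCI-AML3 and 50.7 in OCI-AML5. Past the end of the gene, 1969 bp from the TSS, the called CpG with the largest gap had 1 of 34 calls methylated in OCI-AML3 and 58 of 64 in OCI-AML5 (Fisher's exact test, adjusted p = 1.32e-16).

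**Figure D3:**
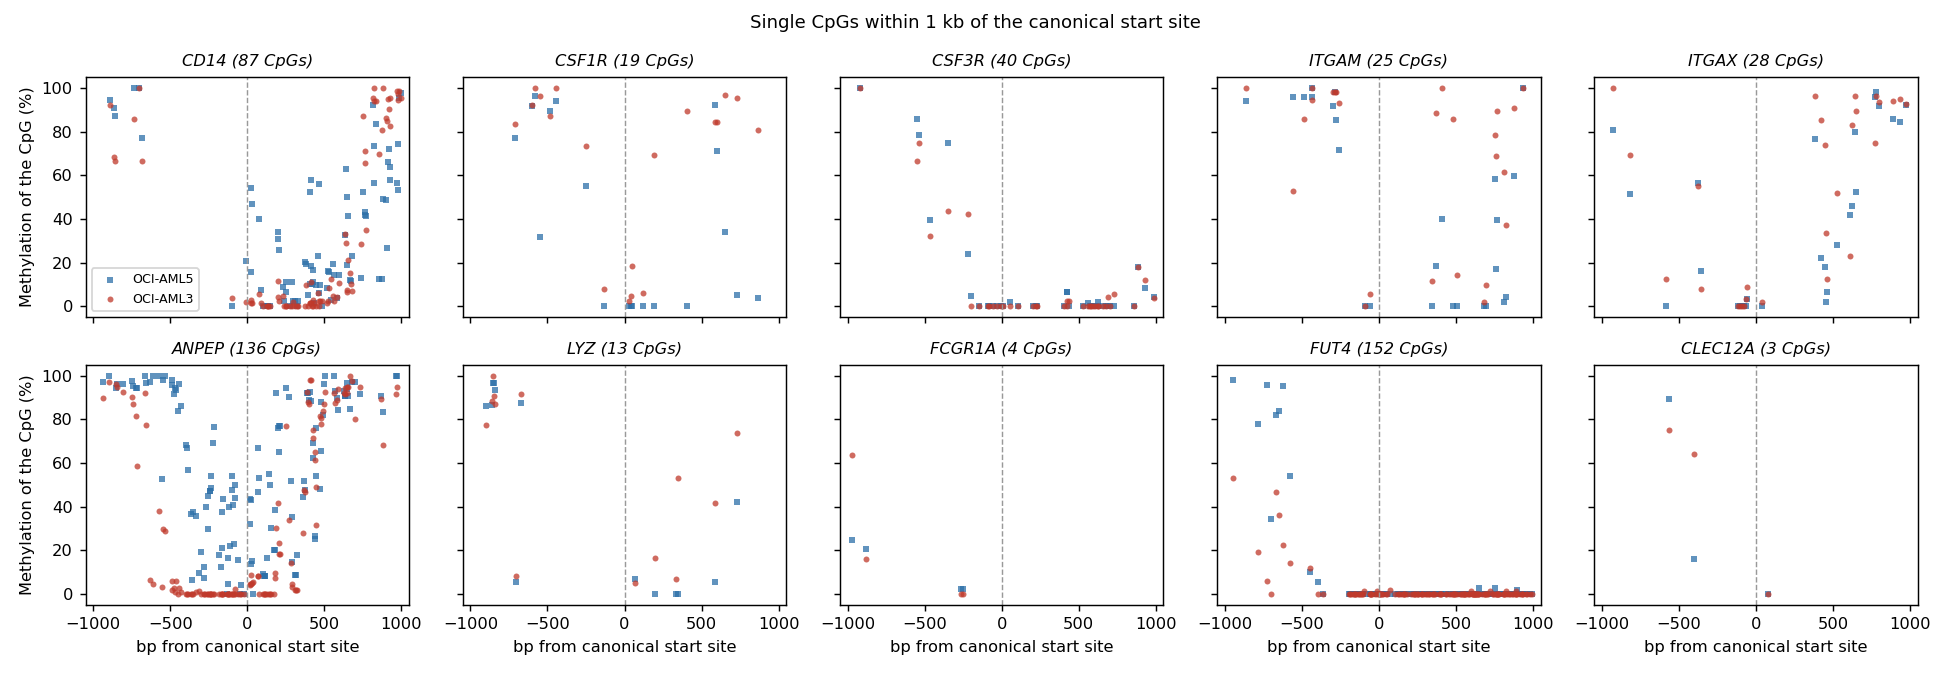
Methylation (%) of every CpG with more than 5 reads in both lines within 1 kb of the canonical TSS (dashed line at 0), against distance in bp along the direction of transcription, for the 10 genes (OCI-AML3 red circles, OCI-AML5 blue squares). ANPEP is unmethylated in OCI-AML3 over a stretch on both sides of the TSS where OCI-AML5 is mostly between 10% and 70%, in CD14 the blue squares lie above the red circles near the TSS and mostly below them from 752 bp on, and in FUT4 both lines are near 0% from the TSS on.

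ANPEP had the widest difference of the 10 genes around the most upstream TSS. It is on the study's list of genes with a hypomethylated promoter in these same libraries and higher expression in microarray data. The direction of its methylation is therefore not independent evidence. The gene is known to be transcribed from separate promoters in myeloid and epithelial cells. Within 2 kb of the most upstream TSS the level was 40.6% in OCI-AML3 and 63.2% in OCI-AML5 over 158 CpGs, with 59 called lower and 4 higher. Within 500 bp of that TSS the levels were 18.8% and 59.6% over 63 CpGs, with 44 called lower and none higher. As shares of calls they were 12.4% and 63.5%, a difference of -51.1 points (95% interval -53.3 to -48.9). The number of CpGs below 20% in the promoter was 79 in OCI-AML3 and 26 in OCI-AML5.

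Of the 59 CpGs called lower in the ANPEP promoter, 46 fell into 6 runs from 632 bp upstream to 210 bp downstream of the canonical TSS. The longest, 18 CpGs at 367 to 632 bp upstream, was at 7.29% in OCI-AML3 and 84.2% in OCI-AML5, and the printed stretch of 10 CpGs at 0% and 47.5%. In the longest run, at 609 bp upstream, 2 of 46 calls were methylated in OCI-AML3 and 37 of 37 in OCI-AML5 (Fisher's exact test, adjusted p = 3.98e-19). The region around this TSS is CpG-rich, with 101 CpGs in 1001 bases and an observed to expected CpG ratio of 0.83. Over larger parts of the gene the lines were closer, with 78.7% and 84.3% over 195 CpGs of the first intron and 90.4% and 93.4% over 115 CpGs of coding exons. That intron overlaps the promoter window and includes the runs downstream of the TSS. The 3′ untranslated region was at 79.9% and 94.8% over 9 CpGs, with 3 called lower and none higher. A seventh lower run lay 10528 to 10616 bp from the TSS, with 38.3% in OCI-AML3 and 91.6% in OCI-AML5 over 3 CpGs. One run went the other way, with 83.3% in OCI-AML3 and 38.6% in OCI-AML5 over 6 CpGs of an intron 12062 to 12277 bp from the TSS. The promoter was read at 48.9 calls per CpG in OCI-AML3 and 31.2 in OCI-AML5, whose part in the result was not tested. The genes most like ANPEP, by the Euclidean distance over promoter and body level in each line, were ERICH6B, PADI2 and ZFP92, at distances of 3.36, 3.55 and 3.75 percentage points.

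FUT4 has a single exon, and the sequence around its TSS is CpG-rich. Its body was at 0.33% in OCI-AML3 and 0.74% in OCI-AML5 over 224 CpGs, and the 78 CpGs within 500 bp of the TSS were at 0.21% and 0.20%. The 64 CpGs upstream of the TSS, in a window that PIWIL4 overlaps, were at 43.1% and 51.9%, and 7 of them were called lower and none higher. The printed FUT4 stretch lies upstream of the unmethylated region. Along it the levels went from 53.0% to 0% in OCI-AML3, and ended at 34.2% in OCI-AML5 after 98.1%, 78.0% and 95.7%. Past its end they were higher again, with 46.7% in OCI-AML3 and 81.8% in OCI-AML5 at -668 bp from the TSS. At -446 bp they were 11.8% and 10.0%. The third CpG of the stretch had 2 of 33 calls methylated in OCI-AML3 and 45 of 47 in OCI-AML5 (Fisher's exact test, adjusted p = 2.42e-15). The window was read at 66.9 and 40.0 calls per CpG, and the part of this depth gap was not tested.

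LYZ is CpG-poor, with 5 CpGs in the 1001 bases around its TSS. Its promoter was at 75.5% in OCI-AML3 and 71.2% in OCI-AML5 over 30 CpGs, and 1 of them was called. That CpG, 347 bp downstream of the TSS in the first intron, had 26 of 49 calls methylated in OCI-AML3 and 0 of 40 in OCI-AML5 (Fisher's exact test, adjusted p = 8.39e-08). It is the second CpG of the printed LYZ stretch, and the first of the pair was at 6.98% and 0%. The first intron as a whole was at 38.5% and 9.53%, over only 5 CpGs that passed, and the share of its calls was 39.3% (95% Wilson interval 31.7 to 47.4) and 7.09% (3.77 to 12.9). The 22 CpGs upstream of the TSS were at 89.8% and 90.7%, and the body at 75.5% and 76.7%. The only other called CpG of the gene lay 3298 bp downstream and went the other way, with 4 of 17 calls methylated in OCI-AML3 and 6 of 6 in OCI-AML5 (Fisher's exact test, adjusted p = 0.0138).

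FCGR1A could be read only in part. The gene has near-identical copies elsewhere on chromosome 1, reads that fit several copies may be lost or misplaced, and 45 of its 61 body CpGs passed the read minimum. Its promoter, which overlaps H2BC18, was at 56.1% in OCI-AML3 and 46.9% in OCI-AML5 over 18 CpGs, with 1 called higher and none lower. As shares of calls the promoter was at 53.9% and 52.5%, a difference of 1.44 points (95% interval -3.95 to 6.80), which includes 0. The body was at 75.8% and 70.3%, with 2 CpGs called lower and 1 higher, and no CpG of the first intron passed. The called CpG with the largest gap, 6022 bp downstream of the canonical TSS, had 10 of 29 calls methylated in OCI-AML3 and 22 of 23 in OCI-AML5 (Fisher's exact test, adjusted p = 8.89e-05).

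CLEC12A, like CSF1R, was read differently at its start sites. Within 2 kb of the most upstream TSS, 20093 bp before the canonical one, the level was 90.4% in OCI-AML3 and 89.1% in OCI-AML5 over 77 CpGs. Within 500 bp of that upstream TSS, however, the level was 75.1% and 60.7% over 8 CpGs, with 2 called higher and none lower. Within 2 kb of the canonical TSS it was 71.2% and 47.2% over 11 CpGs, with 3 called higher and none lower. The first intron was at 79.6% and 57.5% over 27 CpGs, with 9 called higher and 2 lower. In its 1 run of calls, 2003 to 2392 bp from the TSS, 6 CpGs were at means of 91.4% and 4.72%. The printed CLEC12A stretch holds 5 of these, at 82.6% to 100% in OCI-AML3 and 0% to 20% in OCI-AML5. Its second CpG had 9 of 9 calls methylated in OCI-AML3 and 0 of 7 in OCI-AML5 (Fisher's exact test, adjusted p = 8.58e-04), and a count of 0 in 7 calls allows a level of up to 42.9%.

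First introns were examined as a group after their values had been seen at single genes, so the counts describe the pattern and do not test it. Of the 7 genes whose first intron in the canonical transcript had at least 5 CpGs, CSF1R, ITGAM, ITGAX, LYZ and CLEC12A were higher in OCI-AML3 by over 20 points, beside 1.49% of 17358 first introns, and none was lower by over 20 points, beside 9.73%. CSF3R and ANPEP differed by 0.24 and -5.53 points. The median of the 7 was 23.2 points and that of all first introns -4.80. The count was 4 with at least 10 reads per CpG or at least 10 CpGs, where LYZ could not be counted, and 4 as shares of calls, where CLEC12A was at 15.7 points. In the 5 genes, 45 CpGs of the first intron were called higher and 4 lower. This split follows in part from the choice of these genes by a higher mean, and the calls over all first introns were not counted. In the 1-kb windows centred on the canonical TSS, 7 of the 10 genes had at least 5 CpGs. ITGAM and CSF1R were higher by over 20 points, beside 3.44% of such windows, and ANPEP was lower, beside 10.1%. As shares of calls ITGAM differed by 8.81 points and ITGAX by 22.4, so that ITGAX took the place of ITGAM in the count.

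**Figure D4:**
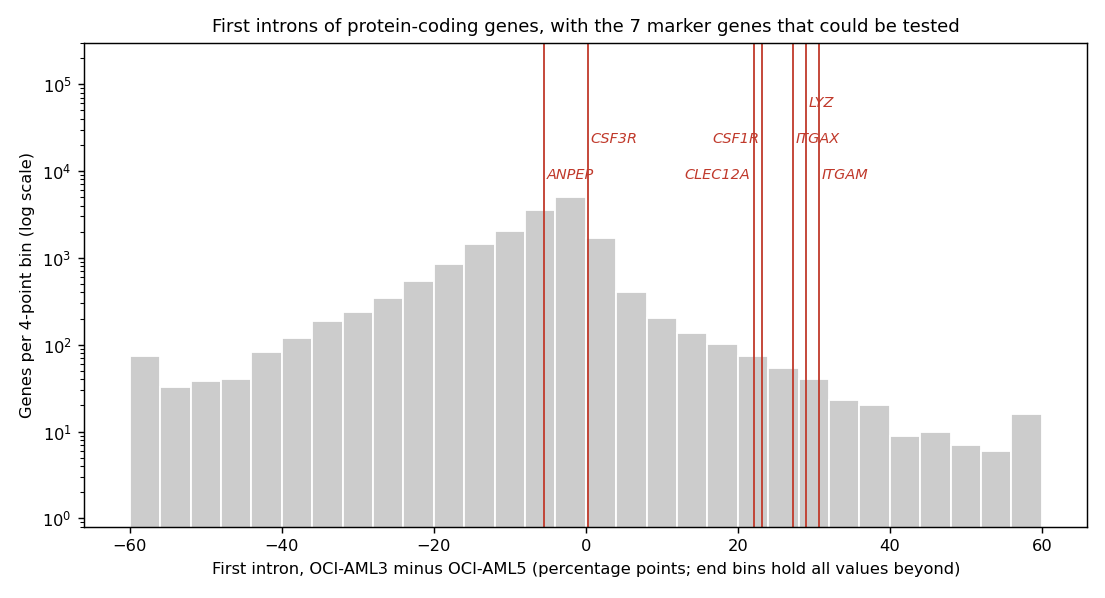
Number of protein-coding genes (log scale) by the difference in first-intron methylation between OCI-AML3 and OCI-AML5, in bins of 4 percentage points, with the 7 marker genes that had at least 5 CpGs drawn as red lines. CLEC12A, CSF1R, ITGAX, LYZ and ITGAM lie between 22.1 and 30.6 points, ANPEP at -5.53 points is near the median of all genes, -4.80, and CSF3R lies at 0.24.

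Runs of called CpGs were counted over the whole genome, where 282640 were lower and 51223 higher in OCI-AML3. A lower run touched the promoter of 3 of the 10 genes (CD14, ANPEP and FUT4), beside 61.7% of all promoters. A higher run touched that of 3 (CD14, ITGAM and ITGAX), beside 19.3%. The promoter here is the window on the most upstream TSS. The higher CSF1R run at 648 to 869 bp from the canonical TSS is therefore not counted. In the bodies of the 10 genes there were 19 lower and 17 higher runs, with no such count over all gene bodies to set beside them. Of the higher runs, 7 lay in the second exon of CD14. Promoter and body windows overlap, so runs just downstream of a TSS, these 7 among them, enter both counts. No run was found at CSF3R, LYZ or FCGR1A.

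The promoters were searched for 5 short motifs, which the choice of genes did not use, and no motif was found in all 10 promoters and none of the 5 in ANPEP or FUT4. In the 250 bases before the canonical TSS and the first 50 of the transcript, the PU.1 core GAGGAA was present on either strand in 7 of the 10 (CD14, CLEC12A, CSF1R, CSF3R, FCGR1A, ITGAM and ITGAX), beside 27.2% of all 20163 promoters. PU.1 is a transcription factor needed for myeloid development. The RUNX motif TGTGGT was present in 4 (CLEC12A, CSF1R, ITGAM and LYZ), beside 10.8%, and in ITGAM its match shared 1 base with a PU.1 match. The AP-1 motif TGACTCA was present in CD14 and ITGAX, beside 3.57%, the TATA box TATAAA in CLEC12A, beside 9.78%, and the C/EBP motif TTGCNNAA in none, beside 8.1%. A match describes the letters and not a bound site. CpG content varied widely, from 2 CpGs in the 1001 bases around the TSS of CLEC12A to 101 at ANPEP, and the 5 genes with the higher first intron had 2 to 14 CpGs there.

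Over all genes, 84.7% of promoters were lower in OCI-AML3 and 8.61% were lower by over 20 points. Of 12 partners and ligands of the markers, 9 promoters were lower and 3 higher, with a median difference of -9.41 points, and 3 were lower by over 20 points. FCER1G, the signalling chain of FCGR1A, was at 21.2% in OCI-AML3 and 78.7% in OCI-AML5. FUT7, the fucosyltransferase that acts with FUT4 in making selectin ligands, was at 2.22% and 41.0%, and ITGB2, the beta chain of both integrins, at 14.0% and 37.2%. These 3 genes are also on the study's list, which used methylation in these libraries and expression from microarrays. Of 24 other monocyte and granulocyte markers that could be measured, 20 were lower and 4 higher, with a median of -10.3 points. The 4 genes lower by over 20 points were CD86, CD177, CD68 and CEACAM6, and CD86, a co-stimulatory ligand, was at 51.5% and 87.6%. Of 12 lymphoid markers, 11 were lower and 1 higher, with a median of -6.14 points and none over 20 points in either direction.

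**Figure D5:**
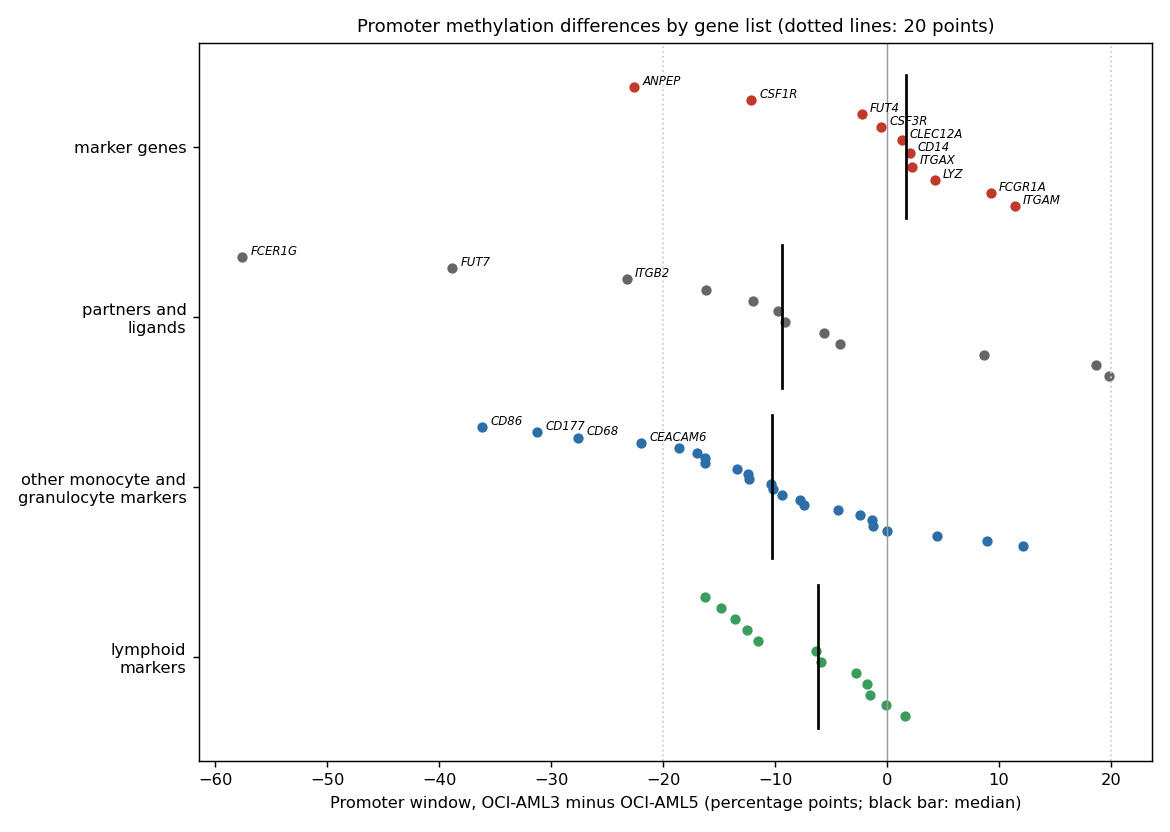
Difference in promoter methylation (OCI-AML3 minus OCI-AML5, percentage points) of each gene in the 4 lists, with the median of each list as a black bar and dotted lines at 20 points on either side. The marker genes lie around their median of 1.70 with ANPEP at -22.6, and FCER1G, at -57.6, is the lowest of all the genes plotted.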

How the data were processed

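Whole-genome bisulfite sequencing of 1 library per line was analysed. The authors aligned paired-end reads to hg19 with Bismark, with Bowtie 0.12.8 per the labels, and deposited, for every CpG, the unsmoothed counts of reads calling it methylated and of reads calling it unmethylated, both strands combined. Removal of duplicate reads is not given in the sources used here. The column of methylated calls was identified from the mitochondrial genome (0.168% and 0.101% methylated), and 99.8% of nuclear positions fell on the G of a CG in GRCh37. Levels were methylated over all calls at CpGs with more than 5 reads in both lines. At the median depths the floor of 3 calls is 11.1% in OCI-AML3 and 10.0% in OCI-AML5. Intervals cover counting error only, and calls that share a read are not independent.

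Genes were taken from GENCODE release 44 lifted to GRCh37, and the canonical TSS is that of the transcript tagged so. The exact test was checked on simulated counts. Python 3.11.15, numpy 2.4.6, scipy 1.17.1 and numba 0.67.0 were used. The members and gene lists were chosen with earlier results of these data known. All 10 members were named, of each further list the genes over 20 points, and per member the called CpG with the largest difference. Alternatives covered the read minimum, the threshold, the window, the TSS and the averaging.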

Additional observations from a re-analysis of the deposited data

How the results depend on the processing

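No paired analysis was possible because each line has 1 library. The results depended most on the window around the TSS. The median promoter difference of the 10 genes, 1.70 points, was -1.26 with 1 kb on either side, -1.67 with 500 bp, -1.11 over the 2 kb upstream alone and 2.87 around the canonical TSS. Among single genes, the sign turned for CD14 (-10.9 with 1 kb and -9.33 upstream alone), CSF1R (16.9 at the canonical TSS), ITGAM, ITGAX and LYZ (-0.77, -0.23 and -0.93 upstream alone) and FUT4 (0.011 with 500 bp). The number of promoter CpGs called lower was 111 with the most upstream TSS alone, and of those called higher 54 with that TSS and 62 with 1 kb. The number of promoters lower by over 20 points was 0 upstream of the TSS alone, and 1 was higher with 500 bp (ITGAM) and 1 at the canonical TSS (CLEC12A). With at least 10 reads, 1 of the 1-kb windows was higher. The 1-kb windows centred on the canonical TSS, the first introns and the leaving out of FCGR1A were added after seeing the data. CpGs called in gene bodies stayed within 1.5 times under every read minimum and threshold tried. The windows hold different CpGs, and other causes were not tested.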

Other observations

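Among the 12 partners and ligands, the first introns of 11 had at least 5 CpGs, and the alpha chain ITGAL, named after its values were seen, was the only one higher in OCI-AML3 by over 20 points, with 76.1% in OCI-AML3 and 24.2% in OCI-AML5 over 32 CpGs, of which 25 were called higher and none lower. ITGAD, another alpha chain that pairs with ITGB2, went the other way, with 81.4% and 92.9% over 17 CpGs, so the higher first intron of ITGAL, ITGAM and ITGAX did not extend to all 4 of these chains. FCER1G and FUT7 were lower, at 4.36% and 61.3% and at 3.85% and 58.9%. Of 17 other monocyte and granulocyte markers, 14 first introns were lower and 3 higher, with a median of -8.28 points 3 lower by over 20 points (CD163, CD36 and CXCR1) and none higher by that much. The lymphoid markers had 7 of 9 lower, with a median of -3.47 points and CD3G lower by over 20 points, at 53.1% and 84.7%. Over all first introns, 84% were lower.

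At 9 of the 10 marker genes, the flanks were less methylated in OCI-AML3, with differences of -4.05 to -8.96 points. The flanks run from 2 kb to 50 kb beyond either end of the gene and leave out the gene itself. Those of ITGAM reach over most of ITGAX, and those of ITGAX over part of ITGAM. FCGR1A was the exception, at 67.7% in OCI-AML3 and 62.9% in OCI-AML5, where 638 of 1329 CpGs passed the read minimum.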
